A study of Mus musculus with 18 samples.

Results

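The dorsal spinal cord of mice expressing HDAC4 wt was compared between CFA and saline, gene by gene, from the deposited gene table of these mice. A row of the table was read when its status was OK or NOTEST, it named 1 gene, its mean over both groups was at least 1 FPKM and the name did not start with Igh, Igk or Igl, the immunoglobulin loci. Of the 34579 rows, 16316 met this rule, with 14325 distinct gene names, and they came from 6 of the 18 mice of the study. FPKM counts fragments per kilobase of transcript, scaled to the mapped fragments of the library, so that levels of different genes are comparable per length. The difference after CFA is given throughout as the log2 ratio of the CFA over the saline value, with 0.1 FPKM added to each, which understates the difference of genes near 0.

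All mice were C57BL/6 mice (C57BL/6N in the study's methods) of 3 months that had received recombinant adeno-associated virus (rAAV) in the dorsal horn of the lumbar spinal cord. The vector encoded HDAC4 wt (wild-type histone deacetylase 4), HDAC4 3SA, a mutant that remains in the nucleus, or LacZ, the bacterial β-galactosidase used as control, and each protein carried a Flag tag. CFA, or saline, was injected into the plantar hindpaw and the dorsal part of lumbar segments L3 to L5 was taken 24 h later, from 3 mice for each of the 6 combinations of vector and injection. RNA was sequenced as strand-specific poly-A libraries of bulk tissue. No mouse of the HDAC4 wt groups lacked the virus or the added HDAC4, so the comparison shows CFA against saline on that background, in whichever cells the vector reached; the promoter of the vector is not given in the sources used here.

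CFA, complete Freund's adjuvant, is an emulsion of oil and killed mycobacteria that inflames the injected tissue and makes the paw hypersensitive to heat and touch. The signal reaches the spinal cord through primary afferents, which end on excitatory and inhibitory interneurons of the dorsal horn, and through the blood, since circulating cytokines act on endothelial cells that then express acute-phase genes. HDAC4 is a class IIa histone deacetylase that moves between cytoplasm and nucleus with neuronal activity and represses genes together with MEF2 transcription factors and corepressors.

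The table gives each group a single value, estimated over its 3 mice. No value per mouse, count or depth is part of it, so no SD, interval or test across mice could be computed from it, and the authors' Cuffdiff test in the same table was not used. A difference named here is a difference between 2 group values. As a gauge of how far such values lie apart, the central 95% of genes lay between -0.69 and 0.75 at 1 to 2 FPKM, between -0.29 and 0.34 at 10 to 30 FPKM and between -0.53 and 0.54 at 100 FPKM or above. In bulk tissue, fewer cells of a type and less RNA per cell cannot be told apart. The tissue label was met by the markers: the dorsal horn genes Lmx1b (9.68 FPKM after saline, 7.69 after CFA) and Tlx3 (5.94 and 4.68 FPKM), the astrocyte gene Gfap (807 and 1025 FPKM) and the myelin gene Mobp (884 and 1177 FPKM) were all present. Hdac4 itself stood at 10.1 FPKM with saline and 10.8 FPKM with CFA, a log2 ratio of 0.10. It had 7.41 and 7.72 FPKM in LacZ and 8.86 and 8.81 FPKM in HDAC4 3SA mice, each normalized separately. The table does not tell reads of the vector from those of the endogenous gene.

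Of the 16316 rows, 1107 were higher after CFA by a log2 ratio of at least 0.5 (6.78%) and 551 were lower by as much (3.38%). A log2 ratio of at least 1 in either direction was reached by 245 rows that were higher and 117 that were lower. Many of these rows did not lie on the strand of the gene they were named for. The table gives no strand, but on each chromosome its rows follow the order of position in 2 separate runs, 1 for each strand, and the strand read from that order was the annotated one for 12106 of 12230 genes with a single row (99.0%). By this order 14158 rows lay on the strand of the named gene (sense rows) and 1442 on the opposite strand (antisense rows), while 672 overlapped no annotation of that name and 44 could be given no strand. An antisense row carries the name only because it overlaps the gene, and it need not be a transcript of that gene.

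The antisense rows stood apart from the others in these mice. Of the 1442, 624 were higher after CFA by at least 0.5 (43.3%) and 115 were lower (7.98%), with a median log2 ratio of 0.46 and an SD over rows of 0.70. The 14158 sense rows had a median of 0.00 and an SD of 0.30. Antisense rows made up 56.4% of all rows that were higher and 20.9% of those that were lower. In 1298 cases a sense row of the same name was read as well, and the median ratio of antisense to sense FPKM was 0.258 after saline and 0.365 after CFA. In the LacZ groups this ratio was 0.364 after saline and 0.377 after CFA, and in the HDAC4 3SA groups it was 0.256 and 0.263. The HDAC4 wt saline value thus lay with both HDAC4 3SA values and the HDAC4 wt CFA value with both LacZ values, and the median log2 ratio of the same antisense rows was -0.02 in LacZ and 0.01 in HDAC4 3SA mice. The part of strand specificity of the libraries in this difference was not tested.

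**Figure D1:**
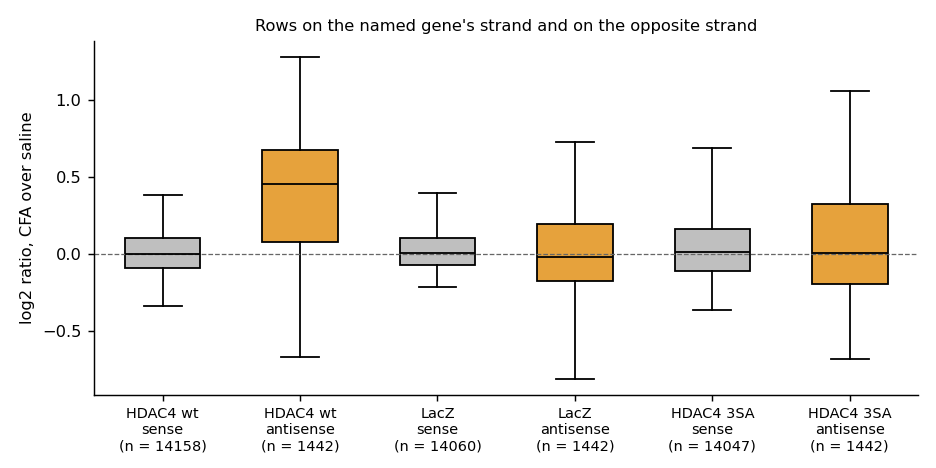
Log2 ratio of CFA over saline (vertical axis) for rows on the strand of the named gene (grey) and on the opposite strand (orange) in the tables of all 3 vectors; boxes span the quartiles, the line is the median and whiskers reach the central 90% of rows. Only the antisense rows of HDAC4 wt mice have a median, 0.46, clearly away from 0.

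For this reason every gene is read below from 1 sense row, the one that covers most of the annotated gene. This left 13686 genes, of which 366 were higher after CFA (2.67%) and 201 lower (1.47%), with a median log2 ratio of 0.00 and an SD over genes of 0.29. A log2 ratio of at least 1 was reached by 75 genes that were higher and 40 that were lower. The same genes had a median of 0.01 in LacZ and 0.01 in HDAC4 3SA mice. Across genes, the log2 ratios of HDAC4 wt mice had a Spearman correlation of 0.213 with those of LacZ mice over 13588 genes and of 0.590 with those of HDAC4 3SA mice over 13575 genes. Genes are not independent replicates, and the tables of the vectors come from different mice that were normalized separately.

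Over all rows of the rule, the largest differences were mostly those of antisense rows or of very short loci. Of the 20 named rows with the largest increase, 13 were antisense and 6 sense, and of the 20 with the largest decrease, 8 were antisense, 9 sense and 8 shorter than 1000 bases. Hist1h4m, a histone name on a locus of 72 bases, was listed at 0 FPKM with saline and 65.0 FPKM with CFA. Antisense to Tank, an adaptor of NF-kB signalling, the value was 11.8 FPKM with saline and 108 FPKM with CFA (log2 ratio 3.18), and antisense to H2-T23, a nonclassical MHC class I gene, it was 32.7 and 158 FPKM (2.27). The sense row of H2-T23 stood at 58.7 FPKM with saline and 80.6 FPKM with CFA (0.46). Antisense to Lhfpl3, 126 FPKM after saline were set against a value listed at 0 after CFA. These values describe the row and not the gene whose name it carries. At the minimum level, Gm12655 (1.20 FPKM after saline, 0.797 after CFA) and Gm15614 (0.988 and 1.01 FPKM) were just inside, and Gtpbp3 (1.18 and 0.822 FPKM) and Hspbap1 (0.958 and 1.04 FPKM) just outside.

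**Figure D2:**
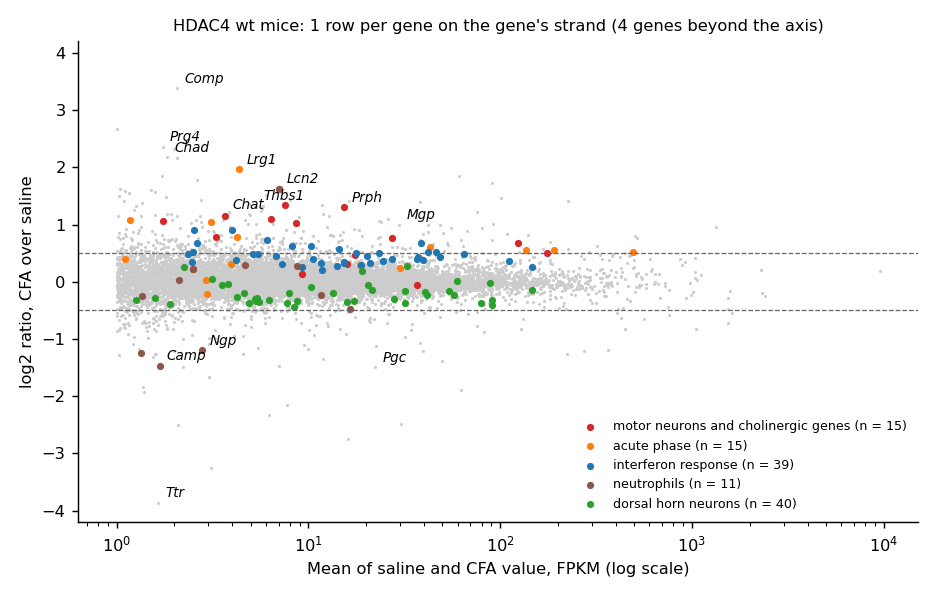
Mean level of both groups (horizontal axis, FPKM, log scale) against the log2 ratio of CFA over saline (vertical axis) for 13686 genes of HDAC4 wt mice, 1 point per gene, with members of 5 gene lists in colour and dashed lines at 0.5 in either direction. Motor neuron genes (red) and acute-phase genes (orange) lie mostly above the upper line, 35 of 40 dorsal horn genes (green) lie below 0 and all 40 between the dashed lines, and the points spread most at low levels.

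Among sense rows that cover a share of at least 0.5 of their gene, a selection made after the values were seen, the 30 largest increases included genes of cartilage matrix, cholinergic neurons, the acute phase and leukocytes, and others of no common kind. Comp, the cartilage oligomeric matrix protein of cartilage and tendon (chromosome 8, 70373552 to 70382065, GRCm38), stood at 0.278 FPKM with saline and 3.85 FPKM with CFA, a log2 ratio of 3.39. Its log2 ratio was 0.75 in LacZ and -0.03 in HDAC4 3SA mice. Prg4, lubricin, the lubricant of joint surfaces and tendons, stood at 0.498 and 2.98 FPKM (2.36), and its ratio was of like size in LacZ mice (2.85) but not in HDAC4 3SA mice (0.26). Chad, chondroadherin, a leucine-rich protein of cartilage matrix, stood at 0.599 and 3.06 FPKM (2.18). All 3 were below 1 FPKM after saline.

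A list of cartilage and tendon genes, written after these values were seen, held 16 genes that could be read. Comp, Prg4, Chad, Ucma (2.63 to 5.18 FPKM, log2 ratio 0.95) and Runx2 (0.673 to 1.84 FPKM, 1.33), the transcription factor of bone formation, were higher after CFA. Over all genes 2.67% were higher, and 6.00% of those at 1 to 2 FPKM. Comp, Prg4 and Chad were known when the list was written. These 3 and Runx2 reached the minimum mean only through their CFA value, so the count of 5 is a description. The other 11 were within 0.3 of 0, among them the collagens of cartilage Col2a1 (0.956 and 1.12 FPKM, 0.21) and Col9a3 (13.7 and 16.4 FPKM, 0.26). Scx, the transcription factor of tendon, stood at 4.40 and 4.45 FPKM (0.02). The difference was thus that of 5 members and not of the list as a whole, whose median was 0.20.

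Motor neuron and cholinergic genes formed the gene list with the highest median. Of 15 members read, 10 were higher after CFA, 0 were lower and 14 were above 0, against 2.67% of all genes higher, and the median log2 ratio was 0.76. Chat, choline acetyltransferase, the enzyme that makes acetylcholine, stood at 2.25 FPKM with saline and 5.09 FPKM with CFA (1.14). Slc18a3, the vesicular acetylcholine transporter, whose gene lies within the Chat locus (chromosome 14, 32407356 to 32466355), stood at 4.25 and 10.9 FPKM (1.34). Slc5a7, the choline transporter that supplies the enzyme, stood at 5.61 and 11.6 FPKM (1.03). The 3 genes of acetylcholine synthesis and packaging were thus all more than doubled, while Ache, acetylcholinesterase, which degrades the transmitter, stood at 37.6 and 36.2 FPKM (-0.06).

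Structural and peptide genes of the list differed in the same direction, and some of them are also on the primary afferent or pan-neuronal list. Prph, peripherin, an intermediate filament of motor and sensory neurons, stood at 8.81 FPKM with saline and 21.9 FPKM with CFA (1.30), and Nefh, the heavy neurofilament of large axons, at 96.0 and 153 FPKM (0.67). Chodl, chondrolectin, a marker of fast motor neurons, stood at 4.02 and 8.68 FPKM (1.09). Calca, which encodes calcitonin and the peptide CGRP, stood at 20.3 and 34.4 FPKM (0.76), and its relative Calcb at 2.39 and 4.18 FPKM (0.78). Uts2b, a urotensin peptide, stood at 1.10 and 2.39 FPKM (1.06). Outside the list, Uts2, the urotensin 2 gene, stood at 4.33 and 11.8 FPKM (1.42), and Slc10a4, a vesicle protein of cholinergic neurons, at 2.29 and 5.44 FPKM (1.21). Both were among the largest increases of sense rows. The list's members below 1 FPKM included Mnx1, a homeobox gene that defines motor neurons (0.344 and 0.835 FPKM), and Isl1 (0.380 and 0.471 FPKM).

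For several of these genes the saline value of HDAC4 wt mice was the low one. Chat had 4.57 FPKM (saline) and 5.97 FPKM (CFA) in the LacZ groups, and 4.45 and 11.0 FPKM in those of HDAC4 3SA, so that 2.25 FPKM was the lowest of the 6 groups. Prph had 20.8 and 26.3 FPKM in the LacZ groups and 15.6 and 43.5 FPKM in those of HDAC4 3SA, and the HDAC4 wt saline value of 8.81 FPKM was again the lowest. Slc18a3, Slc5a7, Chodl and Nefh had their lowest value in the HDAC4 wt saline group too, for Nefh 96.0 FPKM against 222 FPKM after saline in LacZ and 144 FPKM in HDAC4 3SA mice. This did not hold for all: Uts2b had 0.762 and 0.495 FPKM in HDAC4 3SA mice, and Uts2 had 1.71 FPKM after saline in LacZ and 3.95 FPKM in HDAC4 3SA mice, all below the HDAC4 wt saline value. Calca also had less after saline in LacZ mice, 15.5 FPKM, and in HDAC4 3SA mice, 18.0 FPKM. Levels were normalized separately for each vector and are set side by side only as a description. Motor neurons lie in the ventral horn, and how much ventral tissue a dorsal sample held was not tested as a source of the difference. Of a list of ventral interneuron genes, written after values were seen, 4 could be read, with log2 ratios from 0.01 to 0.28.

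Genes that mark dorsal horn neurons lay on the other side of 0. Of 40 members read, 35 were below 0 and 0 passed 0.5 in either direction, with a median log2 ratio of -0.24 against 0.00 over all genes. Over all genes 51.4% were above 0, 2.67% were higher and 1.47% lower. The transcription factors that specify these neurons were among them: Lmx1b stood at 9.68 FPKM with saline and 7.69 FPKM with CFA (-0.33), Tlx3 at 5.94 and 4.68 FPKM (-0.34), and Lbx1 at 6.25 and 4.85 FPKM (-0.36). Several peptides of dorsal horn interneurons were below 0 by like amounts: Sst, somatostatin, stood at 104 and 78.5 FPKM (-0.40), Tac2, neurokinin B, at 89.5 and 69.5 FPKM (-0.37), Cck, cholecystokinin, at 35.9 and 27.7 FPKM (-0.38), and Npy, neuropeptide Y, at 17.9 and 13.9 FPKM (-0.36). Each of these differences was small, and it was their common direction that set the list apart from the median gene.

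Both main transmitter classes of the dorsal horn were included. For excitatory neurons, Slc17a6, the vesicular glutamate transporter VGLUT2, stood at 61.8 and 52.6 FPKM (-0.23). For inhibitory neurons, Gad1, which makes GABA, stood at 101 and 80.8 FPKM (-0.32) and Slc32a1, which loads GABA and glycine into vesicles, at 57.0 and 51.1 FPKM (-0.16). The exceptions above 0 were Pdyn, prodynorphin, the opioid peptide precursor (29.3 to 35.6 FPKM, 0.28), Crh (2.04 to 2.45 FPKM, 0.25), Gal, galanin (17.7 to 20.2 FPKM, 0.19), Rorb (0.05) and Slc6a5, the neuronal glycine transporter (0.02). Opioid receptor genes were below 0: Oprm1, the µ receptor, stood at 2.18 and 1.64 FPKM (-0.39) and Oprd1, the δ receptor, at 1.75 and 1.42 FPKM (-0.28). The list's median was 0.08 in LacZ mice and -0.35 in HDAC4 3SA mice.

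**Figure D3:**
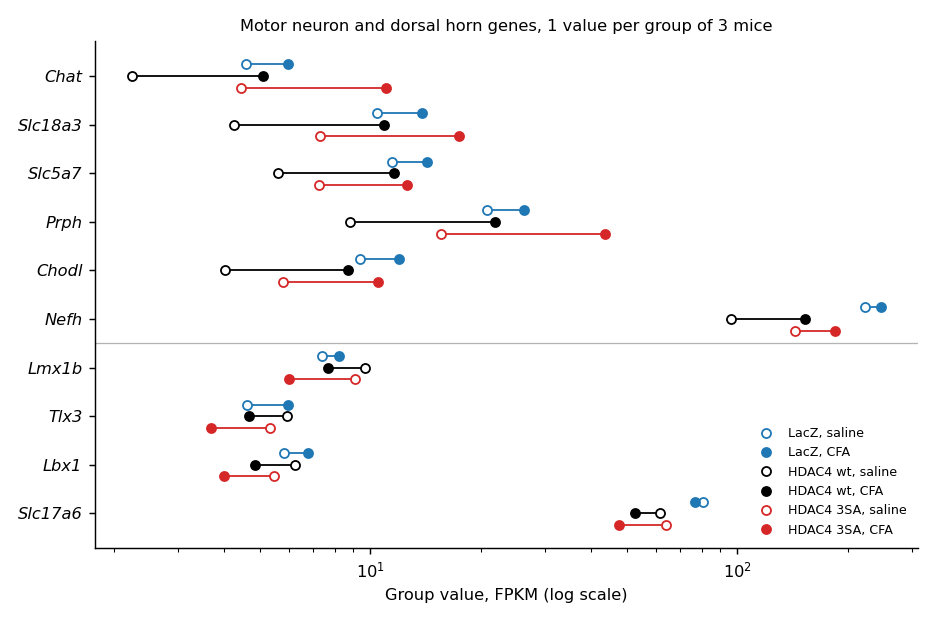
Group values (horizontal axis, FPKM, log scale) of 6 motor neuron genes (above the line) and 4 dorsal horn genes (below it) for LacZ (blue), HDAC4 wt (black) and HDAC4 3SA mice (red), with open circles for saline, filled circles for CFA and a line that joins both. In HDAC4 wt mice each of these motor neuron genes is higher after CFA, from the lowest value of the 6 groups, and each of these dorsal horn genes has the smaller value after CFA, with log2 ratios between -0.23 and -0.36.

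Other neuronal lists were slightly below 0 as well. Pan-neuronal genes had a median of -0.13, with 17 of 22 below 0, and the 2 neurofilaments Nefh and Nefl (235 to 309 FPKM, 0.39) as their highest members. Genes of GABA, glycine and glutamate receptors had a median of -0.15, with 32 of 41 below 0 and 0 past 0.5, and sodium and calcium channels a median of -0.13 with 24 of 29 below 0. Of genes of synaptic vesicle release, 21 of 30 were below 0. Rims2, a scaffold of the active zone, was the member that passed 0.5, with 11.4 FPKM with saline and 6.89 FPKM with CFA (-0.71), 1 of 30 against 1.47% of all genes, and Syt7, a calcium sensor of asynchronous release that was not on the list, stood at 43.2 and 25.9 FPKM (-0.74). In LacZ mice Rims2 was at 0.19 and Syt7 at 0.35, and in HDAC4 3SA mice they were at -0.26 and -0.52.

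Of 66 potassium channel genes, 46 were below 0, with a median of -0.12, and 4 passed 0.5, all of them higher, against 2.67% of all genes. Kcnj14, an inward rectifier, stood at 1.76 FPKM with saline and 3.73 FPKM with CFA (1.05), Kcng4, a modifier subunit of Kv2 channels, at 6.60 and 10.7 FPKM (0.68), and Kcnh6, of the ether-a-go-go family, at 5.95 and 10.9 FPKM (0.86). Kcnn4, the calcium-activated channel of leukocytes and microglia, stood at 3.83 and 5.67 FPKM (0.56). Kcnj14, Kcng4 and Kcnh6 were, like the motor neuron genes, lower in HDAC4 wt mice after saline than in LacZ mice after saline, where they had 3.58, 14.0 and 15.7 FPKM. In HDAC4 3SA mice after saline they had 3.22, 9.96 and 7.60 FPKM. Ntrk3, the neurotrophin 3 receptor, was among the largest increases at a higher level (15.1 to 31.8 FPKM, 1.07), with a log2 ratio of -0.11 in LacZ and 0.25 in HDAC4 3SA mice.

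Hox genes, which keep the positional identity of spinal segments, were below 0 in 17 of 18 cases, with a median of -0.19. Hoxb8, the most abundant, stood at 167 FPKM with saline and 130 FPKM with CFA (-0.36). Hoxd11, a gene of the caudal lumbar cord, was the 1 member past 0.5, with 6.42 and 3.67 FPKM (-0.79), 1 of 18 against 1.47% of all genes. Hoxd11 had 11.3 and 10.7 FPKM in the LacZ groups, and 4.90 and 9.17 FPKM (0.89) in those of HDAC4 3SA. Hoxc11, its paralog in the HoxC cluster, was the 1 member above 0 (1.57 to 1.74 FPKM, 0.14). That ratio lay within the central 95% of genes at 1 to 2 FPKM. Which part of L3 to L5 each sample held was not tested as a source of these values.

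Acute-phase genes were the list with the next highest median. Of 15 members read, 9 were higher after CFA, against 2.67% of all genes, 0 were lower and 14 were above 0, and the median log2 ratio was 0.55, against 0.36 in LacZ and 0.89 in HDAC4 3SA mice. The highest member was Lrg1 (1.72 to 6.99 FPKM, 1.96), with log2 ratios of 2.08 in LacZ and 1.48 in HDAC4 3SA mice. Lcn2, lipocalin 2, which withholds iron from bacteria, had its ratio of 1.63 from 3.40 FPKM with saline and 10.7 FPKM with CFA. Ch25h, which makes the antiviral oxysterol 25-hydroxycholesterol, stood at 3.10 and 5.38 FPKM (0.78). C3, the central complement component, stood at 34.0 and 52.1 FPKM (0.61), and Serpina3n, a serine protease inhibitor of reactive astrocytes, at 111 and 163 FPKM (0.56). The metallothioneins Mt1 (406 to 581 FPKM, 0.52) and Mt2 (155 to 226 FPKM, 0.55), which bind zinc, were the most abundant members. Of the 9, Plin4 met the minimum mean only through its CFA value. In LacZ mice C3 was at 0.08 and Serpina3n at 0.10, while Lcn2 was at 3.00, and in HDAC4 3SA mice the same genes were at 0.89, 0.91 and 1.62.

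The transcriptional regulators of this response were above 0 without passing 0.5, save for 1 of 20, against 2.67% of all genes. All 20 STAT3 and NF-kB feedback genes were above 0, against 51.4% of all genes, with a median of 0.28, and Cebpd, C/EBPδ, which drives acute-phase promoters, stood at 6.38 FPKM with saline and 10.3 FPKM with CFA (0.68). Socs3, the feedback inhibitor of STAT3, stood at 6.34 and 7.65 FPKM (0.27), Bcl3 at 3.72 and 5.05 FPKM (0.43), and Nfkbia, which encodes IκBα, at 21.7 and 28.8 FPKM (0.41). Cytokine and chemokine genes had a median of 0.17, with 2 of 28 higher, against 2.67% of all genes: Ccl5, a chemokine for T cells (28.2 to 50.7 FPKM, 0.84), and Cxcr4 (9.37 to 13.6 FPKM, 0.53). The classical cytokine Il1b stood at 1.32 and 1.38 FPKM (0.06), and Tnf was below the minimum (0.718 and 0.923 FPKM).

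Glucocorticoid-responsive genes lay above 0 in 36 of 37 cases, with a median of 0.27, and 7 were higher, against 2.67% of all genes. At a minimum of 5 FPKM, 4 of 26 were higher. Of the 7, Lcn2, Mt1, Mt2 and Plin4, a lipid droplet coat protein (0.719 to 1.63 FPKM, 1.08), are also on the acute-phase list. The others were Hif3a (0.600 to 1.44 FPKM, 1.14), Sgk1, the serum and glucocorticoid regulated kinase (28.6 to 47.6 FPKM, 0.74), and Tmem252 (1.48 to 2.18 FPKM, 0.52). Hif3a and Plin4 met the minimum mean only through their CFA value. Tsc22d3, GILZ, another target, stood at 42.4 and 49.5 FPKM (0.22), and the receptor gene Nr3c1 stood at 23.3 and 23.9 FPKM (0.04). Of 17 genes of endothelial activation and adhesion, 5 were higher, against 2.67% of all genes, and the median was 0.34. The count was 2 with 1 FPKM added and 2 with a mean of at least 5 FPKM. The highest member was Lrg1 (1.96), which is also on the acute-phase list. Ptgs2, cyclooxygenase 2, stood at 0.747 and 1.33 FPKM (0.75) and met the minimum mean only through its CFA value, and Thbd, thrombomodulin, at 4.29 and 6.13 FPKM (0.51). Genes of endothelial identity differed less, with a median of 0.18 and 1 of 22 higher, and Cldn5, of tight junctions, stood at 28.9 and 31.7 FPKM (0.13).

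Interferon response genes were above 0 without exception. Of 39 members read, 12 were higher after CFA, against 2.67% of all genes, and 39 were above 0, against 51.4%, with a median log2 ratio of 0.44, against 0.43 in LacZ and 0.95 in HDAC4 3SA mice. Mx1, an interferon-induced GTPase gene, stood at 1.73 FPKM with saline and 3.33 FPKM with CFA (0.91). Oasl1 stood at 2.76 and 5.23 FPKM (0.90), and Rsad2, viperin, at 4.59 and 7.63 FPKM (0.72). Irf7, the transcription factor that amplifies the type I response, stood at 29.8 and 47.5 FPKM (0.67), and Usp18, which removes ISG15 and damps the receptor, at 11.6 and 17.3 FPKM (0.57). The guanylate-binding proteins Gbp5 (8.04 to 12.5 FPKM, 0.63) and Gbp2 (38.1 to 54.9 FPKM, 0.52) were higher as well. The list lay as far above 0 as in LacZ mice but from another level: its summed FPKM after saline was 803 in HDAC4 wt, 149 in LacZ and 612 in HDAC4 3SA mice.

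Interferon-stimulated genes are switched on through a short promoter element that binds the factor ISGF3 and interferon regulatory factors. The letters GAAANNGAA, the core of that element less its last base, were searched on both strands in the 250 bases before the start site that RefSeq gives (GRCm38.p6). They were present in 2342 of 32851 promoters (7.13%) and in 16 of the 28 interferon genes of the list for which a promoter was given (57.1%). Of the 9 with a promoter that were higher after CFA, 4 held them (44.4%), which is not a larger share than in the whole list. These 4 promoters are shown 5′ to 3′ on the strand of the gene, with the matches in capitals, because they hold the element upstream of genes that were higher here. That of Gbp2 is chr3:142620413-142620662 on the plus strand, with the match 58 bases before the start, and that of Gbp5 is chr3:142496684-142496933 on the plus strand, with the match 164 bases before it. That of Oas3 is chr5:120777660-120777909 on the minus strand, with 2 overlapping matches 75 and 69 bases before the start, and that of Rsad2 is chr12:26456453-26456702 on the minus strand, with the match 119 bases before it. A match is a description of the letters and not evidence of a bound site.
Gbp2: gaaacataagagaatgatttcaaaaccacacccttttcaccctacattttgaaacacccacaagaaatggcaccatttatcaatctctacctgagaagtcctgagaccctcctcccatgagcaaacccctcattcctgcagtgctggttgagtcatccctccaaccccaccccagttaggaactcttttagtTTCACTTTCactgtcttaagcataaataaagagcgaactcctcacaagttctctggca
Gbp5: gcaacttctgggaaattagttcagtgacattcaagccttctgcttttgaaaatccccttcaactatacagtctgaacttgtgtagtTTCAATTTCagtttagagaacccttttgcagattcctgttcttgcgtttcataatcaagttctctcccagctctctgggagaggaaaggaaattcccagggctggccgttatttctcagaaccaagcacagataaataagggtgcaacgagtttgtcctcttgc
Oas3: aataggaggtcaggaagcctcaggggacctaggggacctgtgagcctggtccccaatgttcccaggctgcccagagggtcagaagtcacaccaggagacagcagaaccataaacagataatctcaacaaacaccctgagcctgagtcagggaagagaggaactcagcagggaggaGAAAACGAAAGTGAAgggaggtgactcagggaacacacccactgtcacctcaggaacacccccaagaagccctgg
Rsad2: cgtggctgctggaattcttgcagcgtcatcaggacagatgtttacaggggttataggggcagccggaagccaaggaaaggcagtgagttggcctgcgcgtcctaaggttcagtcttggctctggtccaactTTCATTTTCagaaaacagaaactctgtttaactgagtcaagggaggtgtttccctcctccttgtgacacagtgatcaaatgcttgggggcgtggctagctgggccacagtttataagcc

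Antigen presentation genes were also above 0 in 25 of 25 cases, with a median of 0.32, and 3 were higher, against 2.67% of all genes. H2-D1 and H2-K1, the classical MHC class I genes, stood at 322 and 449 FPKM (0.48) and at 278 and 385 FPKM (0.47), and B2m, their light chain, at 433 and 561 FPKM (0.37). Cd74, the invariant chain of MHC class II, stood at 397 and 540 FPKM (0.44). H2-Q6, a class Ib gene, passed 0.5 (35.9 to 65.1 FPKM, 0.86), but the H2-Q genes are near-identical copies among which reads can be split. In LacZ mice after saline these genes were at lower levels, with 39.2 FPKM for H2-D1 and 17.8 FPKM for Cd74, and in HDAC4 3SA mice after saline they had 223 and 204 FPKM.

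T and NK cell genes were low in level and above 0 in 16 of 16 cases, with a median log2 ratio of 0.48 and 4 higher, against 2.67% of all genes. The count was 1 with 1 FPKM added. Of all genes at 1 to 2 FPKM 6.00% were higher, and of those at 2 to 5 FPKM 4.00%. Cd3e and Cd3g, chains of the T cell receptor complex, stood at 1.59 and 2.54 FPKM (0.64) and at 3.20 and 4.71 FPKM (0.54), Cd2 at 2.18 and 3.26 FPKM (0.56), and Nkg7, a granule protein of cytotoxic cells, at 1.63 and 3.56 FPKM (1.08). Xcl1, a chemokine of activated NK and CD8 T cells that was not on the list, stood at 0.553 and 1.63 FPKM (1.41). It met the minimum mean only through its CFA value. Cd4 stood at 1.86 and 2.53 FPKM (0.42), while Cd8a lay below the minimum with 0.587 and 1.15 FPKM. B and plasma cell genes had a median of 0.18 with 0 of 18 past 0.5, and Jchain, the joining chain of secreted antibodies, stood at 262 and 282 FPKM (0.10). Jchain had 0.205 FPKM after saline in LacZ and 167 FPKM in HDAC4 3SA mice, so the B-lineage transcripts of HDAC4 wt mice were at a high level without CFA too.

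Microglia genes were shifted a little upwards. Of 23 homeostatic genes, 22 were above 0 and 0 passed 0.5, with a median of 0.24, and of 28 genes of activated microglia 24 were above 0 and 2 passed 0.5 (2.67% of all genes were higher), with a median of 0.33, against 0.30 in LacZ and 0.98 in HDAC4 3SA mice. Tmem119, a marker of resident microglia, stood at 17.4 FPKM with saline and 21.6 FPKM with CFA (0.32) and P2ry12, the purinergic receptor of surveying microglia, at 13.9 and 14.5 FPKM (0.06). Spp1, osteopontin, also made by motor neurons, stood at 144 and 206 FPKM (0.51), and Gpnmb, a glycoprotein of activated macrophages, at 41.7 and 65.0 FPKM (0.64) in a row that covered a share of only 0.0477 of the gene. Lgals3, galectin 3, stood at 38.3 and 53.6 FPKM (0.48), and Cst7, cystatin F, at 35.7 and 45.2 FPKM (0.34). Lyz2, lysozyme of myeloid cells, stood at 322 and 441 FPKM (0.45). Complement and Fc receptor genes had a median of 0.31 with 20 of 21 above 0, and C1qa stood at 360 and 486 FPKM (0.43).

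Neutrophil genes had a median below 0. Of 11 members read, 1 was higher, 3 were lower and 6 were below 0, with a median log2 ratio of -0.24, against 2.23 in LacZ and -0.25 in HDAC4 3SA mice. Over all genes 2.67% were higher and 1.47% lower. With a mean of at least 5 FPKM, 4 members remained and their median was 0.02. The 3 that were lower encode granule proteins: Camp, the antimicrobial cathelicidin, stood at 2.51 FPKM with saline and 0.846 FPKM with CFA (-1.46), Retnlg at 1.92 and 0.749 FPKM (-1.25), and Ngp at 3.93 and 1.66 FPKM (-1.19). Camp and Retnlg met the minimum mean only through their saline value. S100a9, a calcium-binding alarmin, stood at 19.2 and 13.8 FPKM (-0.47). The 1 higher member was Lcn2, which endothelial cells and astrocytes also express. Camp had 0.671 and 5.97 FPKM in the LacZ groups and 3.67 and 1.80 FPKM in those of HDAC4 3SA, so its saline value was lowest in LacZ mice. Csf3r, the receptor for the growth factor of neutrophils, stood at 7.88 and 9.56 FPKM (0.28).

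Glial lists were above 0 by small amounts. All 29 oligodendrocyte and central myelin genes were above 0 with a median of 0.17 and 0 past 0.5, and Mobp had the highest ratio (884 to 1177 FPKM, 0.41). Of 37 astrocyte genes, 35 were above 0 and 4 were higher, against 2.67% of all genes, with a median of 0.23. These 4 were Lcn2, Serpina3n, Gbp2 and Hspb1, a small heat shock protein (13.8 to 24.1 FPKM, 0.80), all of them genes of reactive astrocytes that other cell types express too. Gfap stood at 0.34 and Vim, vimentin, at 142 and 179 FPKM (0.34). Genes of astrocyte identity were nearer 0, with Gja1, connexin 43, at 102 and 105 FPKM (0.04) and Slc1a3, the glutamate transporter GLAST, at 27.2 and 29.3 FPKM (0.11). Genes of motile cilia and ependymal cells had a median of 0.00, against -0.44 in LacZ and 0.14 in HDAC4 3SA mice, and those of Schwann cells a median of 0.04, against 0.30 and -0.16.

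Meningeal and matrix genes differed in a few members. Of 30 genes of leptomeningeal fibroblasts and the arachnoid, 5 were higher (2.67% of all genes were), 20 were above 0 and the median was 0.14, against 0.45 in LacZ and 0.14 in HDAC4 3SA mice. The highest was H19, an imprinted noncoding RNA, with 0.600 FPKM in the saline and 3.38 FPKM in the CFA group (2.31), which met the minimum mean only through its CFA value. Among the others, Crabp2, which carries retinoic acid, stood at 1.70 FPKM with saline and 3.02 FPKM with CFA (0.80), Bgn, biglycan, at 21.5 and 32.7 FPKM (0.60), and Ptgds, the prostaglandin D synthase of the meninges and oligodendrocytes, at 371 and 527 FPKM (0.51). Other fibroblast genes were not higher: Dcn, decorin, stood at 91.8 and 83.3 FPKM (-0.14) and Aldh1a2, which makes retinoic acid, at 11.1 and 8.88 FPKM (-0.32). Several members lay below the minimum mean and had higher ratios than the list's median: Slc47a1, a transporter of organic cations (0.0407 and 1.30 FPKM), Slc26a7 (0.0870 and 0.803 FPKM, 2.27), Msln, mesothelin (0.114 and 0.916 FPKM, 2.25), Igf2 (0.110 and 0.761 FPKM, 2.03) and Slc22a6, the organic anion transporter OAT1 (0.0605 and 0.388 FPKM, 1.60), whose row covered a share of only 0.141 of the gene. Slc47a1 had 0.0370 and 1.26 FPKM in the LacZ groups and 0.0442 and 0.121 FPKM in those of HDAC4 3SA.

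Of 34 matricellular proteins and matrix proteases, 6 were higher, against 2.67% of all genes (at a minimum of 5 FPKM, 3 of 21). The highest was Thbs1, thrombospondin 1 (2.98 to 7.65 FPKM, 1.33), with log2 ratios of 1.05 in LacZ and 0.10 in HDAC4 3SA mice. Among the others were the microfibril protein Mfap4 (1.08 to 2.57 FPKM, 1.18), Loxl1 (1.09 to 1.82 FPKM, 0.69) and Lox (2.23 to 3.20 FPKM, 0.51), which cross-link collagen and elastin. Mfap4 was at -0.40 in LacZ and at 1.23 in HDAC4 3SA mice. Of 30 collagen genes, 2 were higher, against 2.67% of all genes, Col6a2 (5.51 to 9.13 FPKM, 0.72) and Col8a2 (1.55 to 2.37 FPKM, 0.58), and the median was 0.09. Mural cell genes had a median of 0.19 with 0 of 15 past 0.5.

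Among genes of primary afferents, 3 of 10 were higher and 1 was lower, against 2.67% and 1.47% of all genes, and the 3 higher ones, Prph, Calca and Calcb, are also motor neuron genes. The other genes of the list lay on both sides of 0, with Sncg, γ-synuclein, at 60.3 and 80.6 FPKM (0.42) and Pou4f1, a transcription factor of sensory neurons, at 6.11 and 5.06 FPKM (-0.27). The 1 lower member was Trpa1, an irritant receptor, with 2.28 and 0.894 FPKM (-1.26), whose row covered less than 0.5 of the gene and which met the minimum mean only through its saline value. Trpv1, the heat and capsaicin receptor, was below the minimum (0.111 and 0.0960 FPKM). Immediate early genes had a median of 0.17 at 24 h, with 3 of 46 higher and 1 lower, against 2.67% and 1.47% of all genes. Ptgs2, which met the minimum mean only through its CFA value, Gem (1.38 to 2.13 FPKM, 0.59) and Klf2 (5.60 to 8.31 FPKM, 0.56) were higher, and Egr3 was lower (2.16 to 1.44 FPKM, -0.56). Fos stood at 12.8 and 14.6 FPKM (0.18), Arc at 16.2 and 16.8 FPKM (0.05) and Egr1 at 16.9 and 18.1 FPKM (0.10).

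Genes of the HDAC4 pathway itself were near 0. Of 29 HDACs, MEF2 factors, kinases and partners, 0 were higher and 0 were lower, against 2.67% and 1.47% of all genes. The list's median was -0.05. Hdac5, the closest class IIa relative, stood at 28.2 FPKM with saline and 28.2 FPKM with CFA (0.00), Hdac9 at 6.75 and 6.06 FPKM (-0.15), Mef2a at 34.1 and 35.1 FPKM (0.04) and Mef2c at 9.06 and 8.78 FPKM (-0.04). The extremes were Sik1, a kinase that keeps class IIa HDACs in the cytoplasm (4.05 to 5.20 FPKM, 0.36), and Camk2a (72.7 to 58.4 FPKM, -0.32).

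Other genes were lower without belonging to the lists above. Ttr, transthyretin, the thyroxine carrier made by the choroid plexus, stood at 3.16 FPKM with saline and 0.124 FPKM with CFA, and its log2 ratio of -3.86 was the largest decrease of a sense row with such cover. Pgc, progastricsin, a protease precursor, stood at 32.9 and 11.7 FPKM (-1.49). Wars2, a mitochondrial tryptophan tRNA ligase, stood at 2.29 and 0.902 FPKM (-1.26) and also met the minimum mean only through its saline value. Wars2 had 0.698 and 0.664 FPKM in the LacZ groups and 0.945 and 1.01 FPKM in those of HDAC4 3SA. Erc1, another active zone protein, stood at 12.9 and 7.15 FPKM (-0.85). Of 14 skeletal muscle genes read, 1 was higher and 2 were lower, against 2.67% and 1.47% of all genes, and the median was -0.03. The muscle actinin Actn2 stood at 2.11 and 1.37 FPKM (-0.59). Genes particular to muscle lay below the minimum mean and had negative ratios: Ckm, muscle creatine kinase (1.21 and 0.0688 FPKM, -2.96), Acta1, skeletal actin (1.495 and 0.387 FPKM, -1.71), and Myh4, a fast myosin (0.190 and 0.00841 FPKM, -1.42). With no minimum the list's median was -0.19 over 36 genes. Lists of basic cell functions lay close to the median gene: ribosomal proteins at 0.07 (78 genes), the nuclear-encoded respiratory chain at -0.03 (79 genes), heat shock and the unfolded protein response at 0.02 (33 genes), lipid and cholesterol synthesis at 0.06 (26 genes), the cell cycle at -0.02 (22 genes) and nerve injury genes at -0.05 (25 genes).

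**Figure D4:**
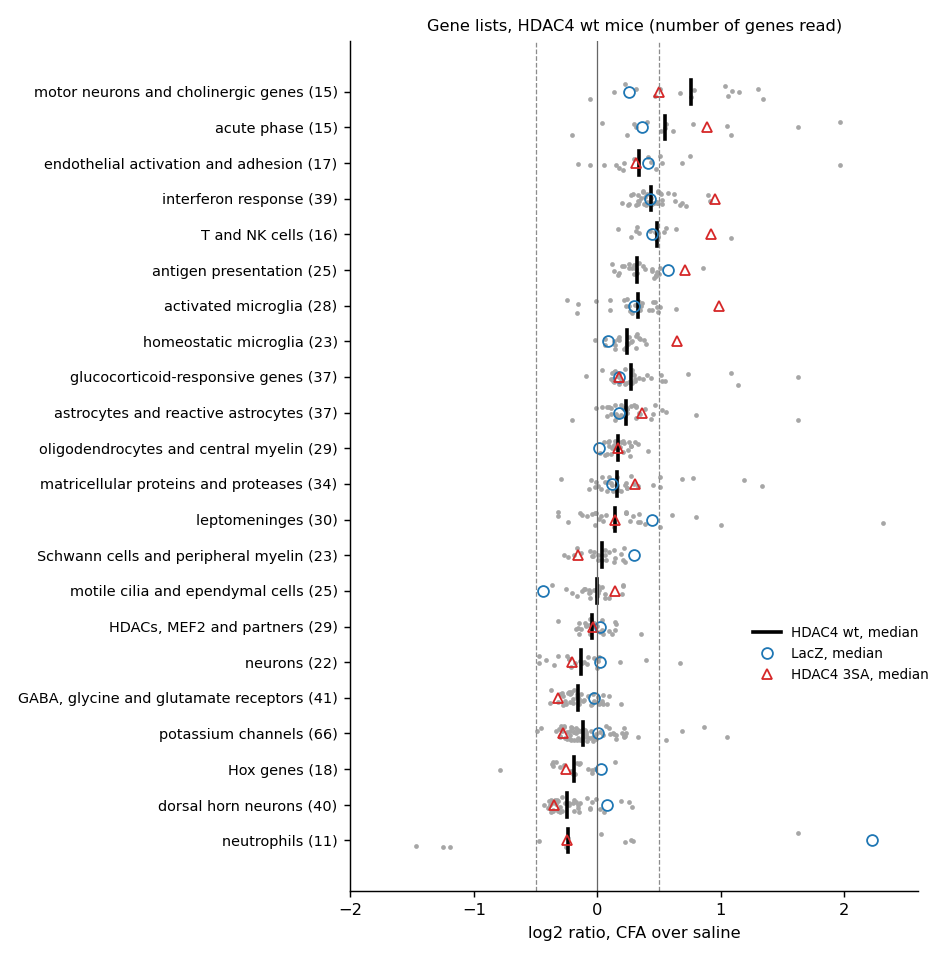
Log2 ratio of CFA over saline (horizontal axis) for members of 22 gene lists in HDAC4 wt mice (grey points, 1 per gene, with the number of genes read in brackets), with the list's median in HDAC4 wt (black bar), LacZ (blue circle) and HDAC4 3SA mice (red triangle) and dashed lines at 0.5 in either direction. Motor neuron genes have the highest HDAC4 wt median, 0.76, which lies above those of LacZ (0.26) and HDAC4 3SA (0.50), while neutrophil genes have a high median only in LacZ mice.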

How the data were processed

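Dorsal spinal tissue of 18 mice in 6 groups of 3 was sequenced. The submitters' processing notes name Bowtie, TopHat, Cufflinks and Cuffdiff, and mm10 (GRCm38). The authors deposited 1 Cuffdiff table per vector, with 1 FPKM value per group; their log2 fold change, test statistic, p-value, q-value and significance flag were not used. Per-sample columns not used numbered 0. The study's methods state a minimum depth, and the depth of each library is not given in the sources used here. The design foresaw tests only for values per mouse or counts, so none was run. The vectors were normalized separately.

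From the values, log2 ratios with 0.1 FPKM added were computed in Python 3.11.15 with pandas 2.3.3, numpy 2.4.6 and, for plots, matplotlib 3.10.9; the calculation was tested on simulated data. Strand was inferred from the row order and compared with GENCODE M21. Coordinates are the locus ranges of the table on GRCm38. Higher and lower mean a log2 ratio of at least 0.5 in that direction.

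Named genes are the 20 largest increases and decreases, the 10 largest with a mean of at least 10 FPKM, leaving out predicted genes, pseudogenes and small RNAs, members of the gene lists, Hdac4, and 2 genes on either side of the minimum. Others were chosen after their values were seen. The lists overlap, and 2 of the 45 were written after values of these genes were seen. The members and lists were chosen with earlier results of these data known. Promoter sequences are from RefSeq (GRCm38.p6). Alternatives concerned the FPKM added, the minimum level, the threshold, centring and the rows counted.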

Additional observations from a re-analysis of the deposited data

How the results depend on the processing

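No paired analysis was possible because the table holds 1 pooled value per group, and for the same reason no mouse could be left out in turn. The 1107 rows that were higher and 551 that were lower became 678 and 302 with 1 FPKM added, 411 and 175 with a mean of at least 5 FPKM, 2677 and 1885 with no minimum, and 245 and 117 at a log2 ratio of at least 1. With alternatives chosen after seeing the data they became 366 and 201 with 1 sense row per gene, and 254 and 106 with sense rows covering a share of at least 0.5 of the gene. The other 10 of 22 recounts stayed within 1.5 times. Of 352 recomputed list medians, 351 moved by less than 1.5 times. All list medians except that of motor neuron genes were smaller in size than this margin, so they could reach 0 and count as unmoved. The median of keratinization and skin genes, 0.11 over 8 genes, was 3.92 with a mean of at least 5 FPKM, where 2 genes were left. The medians of 5 lists changed sign: with a mean of at least 5 FPKM, neutrophil genes went from -0.24 to 0.02, cell cycle genes from -0.02 to 0.07 and nerve injury genes from -0.05 to 0.01, and with no minimum, keratinization and skin genes went to -0.04, cell cycle genes to 0.01 and cilia genes stayed at 0.00 on rounding. Among counts of members that were higher, which were recomputed after seeing the data, acute-phase genes went from 9 to 5 of 7 read, endothelial activation genes from 5 to 2, T and NK cell genes from 4 to 0 of 1 read, glucocorticoid-responsive genes from 7 to 4 and matricellular genes from 6 to 3 with a mean of at least 5 FPKM. With 1 FPKM added, endothelial activation genes went to 2 and T and NK cell genes to 1, and with no minimum T and NK cell genes went to 11 of 27. The other 48 of 56 such counts stayed within 1.5 times. Ratios of named genes were recomputed only with another FPKM added or with centring, and 45 of 519 moved by over 1.5 times. Adding the same amount to both values cannot change the sign of a ratio, so the sign was not checked by this. Centring shifted the ratios over all rows by 0.00379. Without values per mouse, how far a single gene's difference exceeds the spread between mice cannot be given, and this limits genes at 1 to 2 FPKM most.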

Other observations

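Immunoglobulin rows, which the rule left out, were 186 at a mean of at least 1 FPKM. Of these, 99 were higher and 66 lower after CFA by a log2 ratio of at least 0.5, and 31 were listed at 0 FPKM in 1 of the groups. Among the rows of the rule, 6.78% were higher and 3.38% lower. Constant region genes differed in both directions. Ighg3 stood at 29.2 FPKM with saline and 161 FPKM with CFA, Igha at 269 and 435 FPKM, Igkc at 419 and 446 FPKM, Iglc1 at 44.3 and 34.2 FPKM and Iglc2 at 118 and 22.9 FPKM. In LacZ mice after saline Igkc had 0.117 FPKM and Igha 0.0513 FPKM. With 1 value per group of 3 mice, the spread of these genes between mice cannot be given.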
